A study of Mus musculus with 16 samples.

Results

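The cytosines described here are single mRNA positions of mouse embryonic stem cells that stayed non-converted after bisulfite treatment far more often than other mRNA cytosines. They were chosen in the 6 libraries of rRNA-depleted long RNA by their own non-conversion: a position over 100 in the transcript, a listing in all 6 libraries, a summed coverage of 60 reads or more, non-converted reads of 15% or more of that sum, and no place in a run of 5 or more consecutive listed positions. Of 1486531 cytosines that met every condition but the level, in 7687 transcripts, 382 met it too (0.0257%), in 250 transcripts of as many genes. In all, 4938637 cytosines of 15330 transcripts were listed in at least 1 of the 6 libraries. The condition on runs removed 20 further cytosines that met the others.

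The cells were of the J1 background and were either wild type or Dnmt2-/-, the knockout of the gene whose symbol is now Trdmt1, with 3 libraries each. Both were cultured with fibroblast feeder cells, which were removed before RNA extraction by letting them attach. The labels state no treatment, and they do not say whether the 3 libraries of a genotype came from separate cultures or lines, so any p-value measures the spread between these libraries, which may be technical. Summed coverage ran from 37786723 (wild type replicate 3) to 143488903 (wild type replicate 2), with a median of 6 to 11 reads per listed cytosine. The background, the pooled non-conversion of cytosines at 10% or less, was 1.51% ± 0.0722 in wild type against 1.65% ± 0.196 in the knockout (SD, n = 3 and 3). It was 1.77% and 1.76% in knockout replicates 1 and 2 and between 1.42% and 1.59% in the other 4 libraries. All 10 stem cell markers were listed, with a summed scaled coverage of 1850 to 2207 in wild type against 2102 to 2805 in the knockout. The largest part of the sum was Dppa5a, with 1245, 950 and 991 in wild type against 1794, 1746 and 1279 in the knockout. Pou5f1, Sox2, Zfp42 and Tdgf1 overlapped between genotypes. Of 10 feeder fibroblast markers 6 were listed, summing to 18.0 to 39.6 and 15.7 to 20.7, and Pdgfra, Pdgfrb, Postn and Lum were not. The scaled mean coverage of Trdmt1 was 4.32, 3.47 and 2.93 in wild type against 1.30, 0.458 and 0.978 in the knockout.

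Bisulfite deaminates cytosine to uracil, which is read as thymine, and leaves 5-methylcytosine as cytosine. Non-conversion is therefore a measure of this mark, and incomplete conversion of unmodified cytosines, often in folded RNA, gives the same signal. In mammalian mRNA the mark is placed mainly by Nsun2, which also methylates tRNAs, and by Nsun6, whose targets carry the motif CUCCA with its first base methylated, whereas Dnmt2 is known for a single position in the anticodon loop of a few tRNAs. Alyref, an mRNA export adaptor, and Ybx1 bind methylated mRNA.

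The letters around the sites show the 2 kinds of surroundings met in this set. The files give cytosines but no other bases, so each window runs 5′ to 3′ with the site as a capital C, other listed cytosines as c and every position not listed as a cytosine as n. Each covers 10 nt on either side. The first 10 are isolated sites, chosen because they were high, deep or had the cytosine spacing of the Nsun6 motif, and the last 4 are from groups of neighbouring sites.
Nid2 521: nncccncnnnCnnnnnccnnc
Cenpv 680: ncnccnncccCnnnnncnnnn
Srsf6 1251: nnnnncncnnCcnnnnnnnnn
Sec61a1 2857: nnnnnnnnnnCnnnccnnnnn
Nus1 473: cncnnncncnCnnncnnccnn
Eif4ebp1 567: ncnccncncnCnnnnnnccnn
Rack1 186: nccncnnnncCcnnncnnnnn
Phb2 326: nnncnnncnnCnnnncncnnn
H2ac20 171: nncncnnnnnCnccnncncnc
Rest 922: nnnncnnnnnCnccnnnnncc
Trim71 265: nnncnnnnncCncnnncnncn
Rad23b 307: cnnccnnnccCcnncnnnnnc
Igfbp3 300: ccnccncccnCcncncccncn
Ppp1r14b 322: nnncnnnnncCcnnnnnncnc

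The level of the 382 cytosines, summed over libraries, had a median of 20.8% with quartiles of 17.3% and 28.9%, against a median of 1.47% over all eligible cytosines. Of them, 215 stood at 20% or more, 87 at 30% or more, 25 at 50% or more and 8 at 85% or more. These values chose the cytosines and are a description. The median summed coverage was 144.5 reads, with a range of 60 to 9496, so a single library often held few reads: 180 of the 382 had under 10 reads in wild type replicate 3, 67 in wild type replicate 1 and 1 in wild type replicate 2, and 24, 43 and 22 in knockout replicates 1, 2 and 3. In each of the 6 libraries taken alone, 97 of the cytosines reached 15% and 242 reached 5%, while 116 were at 0 in at least 1 library. At a summed coverage of 200 or more, the cytosines nearest the threshold from above were Zwilch 1190 (15.0%), Tmem167 288 (15.1%), Alyref 187 (15.1%), Mex3c 953 (15.2%) and Xpo6 4162 (15.3%). Those nearest from below were Samd1 357 (15.0%, from 41 of 274 reads), Rps27a 262 (14.9%), Lin28a 832 (14.8%), Srcap 1113 (14.8%) and Trim71 1640 (14.7%).

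Most sites stood alone. In 209 transcripts there was 1 such cytosine, in 20 there were 2 and in 21 there were 3 or more. The other listed cytosines within 25 nt of a site, which lie largely on the same reads, gave a further split: for 242 cytosines in 222 transcripts (63.4%) their pooled non-conversion was under 5%, as for 99.9% of eligible cytosines, and for 140 cytosines in 32 transcripts it was 5% or more. The first are called isolated below and the second grouped, by the level of their surroundings. The 4 sites of Brd1 and 4 of the 5 of Samd1, which lie close together in transcripts with several, count as isolated by this measure. The median levels of isolated and grouped sites were 21.2% and 20.6%. Their levels in the single libraries are a description too. Pooled over the isolated sites, non-conversion was 25.5%, 26.1% and 26.2% in wild type replicates 1, 2 and 3 and 29.6%, 29.7% and 27.2% in the knockout. Pooled over the grouped sites it was 17.0%, 12.3% and 35.3% in wild type against 22.2%, 22.8% and 31.1% in the knockout. With reads pooled, which weights deep transcripts such as Rad23b, the grouped sites were highest in replicate 3 of both genotypes. Their library medians, which weight sites equally, were 20.0%, 11.7% and 25% in wild type against 22.2%, 25% and 24.0% in the knockout, where replicate 2 was the highest. The pooled values of isolated sites, weighted by deep sites such as Rack1 186, stayed within 3 points from library to library of a genotype. Their library medians were 21.6%, 22.4% and 20.0% in wild type. In the knockout these medians were 25.2%, 26.0% and 21.7%, a wider spread than that of the pooled values.

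**Figure D1:**
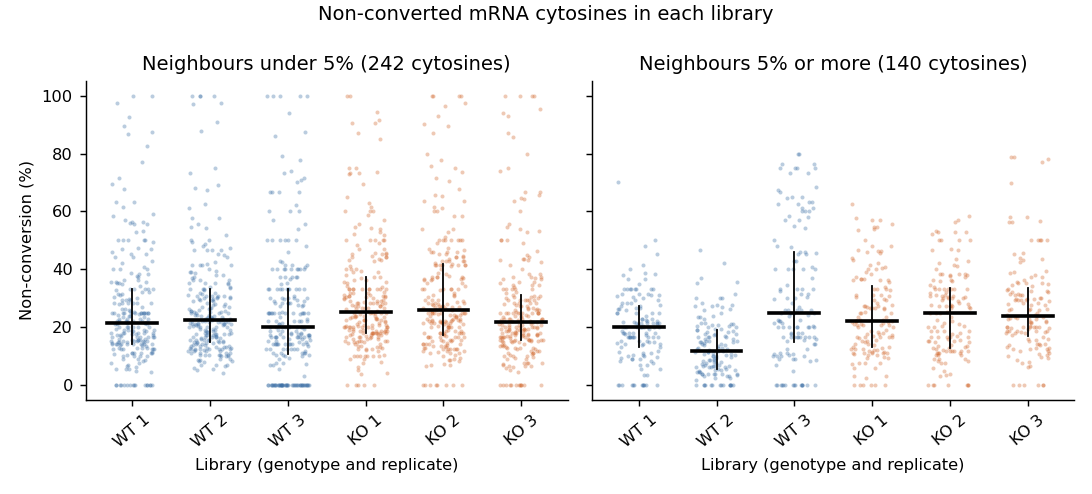
Non-conversion (%) of each cytosine in each of the 6 libraries (points; blue wild type, orange knockout), with the median (thick bar) and the quartiles (thin bar), for the 242 isolated sites (left) and the 140 grouped sites (right). The library medians of isolated sites run from 20.0% to 26.0%, and those of grouped sites from 11.7% in wild type replicate 2 to 25% in wild type replicate 3 and knockout replicate 2.

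In 6 genes a site near full non-conversion lay in an mRNA with near-identical copies in the genome. The enolase mRNA Eno1 (NM_023119.2) at position 1386 stood at 99.0% of 101 reads, with 100%, 100% and 66.7% in wild type (the last from 3 reads) against 100% in all 3 knockout libraries. The chaperone mRNA Hspa8 (NM_031165.4) at 1521 stood at 98.4% of 63 reads, and the ribosomal protein mRNAs Rpl26 (NM_009080.2) at 241 and Rps2 (NM_008503.5) at 703 at 97.0% and 90.9%. The histone H3 mRNA H3c6 (NM_178205.2) at 421 stood at 96.4% and the pseudogene Rpl34-ps1 (NM_001199350.1) at 153 at 92.4%. The coverage of the site was set over the median of the eligible cytosines of its own transcript, called the transcript's median below. This ratio was 0.169 for Eno1, 0.0329 for Hspa8, 0.278 for Rpl26, 0.0724 for H3c6 and 0.055 for Rps2. At these 5 sites the coverage was thus well under that of the transcript's eligible cytosines. It was 0.716 for Rpl34-ps1. Ribosomal proteins, Eno1 and Hspa8 have processed pseudogenes, and the histone genes have near-identical paralogs. How the authors placed reads that match several copies is not given in the sources used here, and these sites are reported as uncertain.

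At the other 19 of the 25 highest sites, 1 per gene, the coverage was 0.391 to 3.82 times the transcript's median, lowest in Srsf6 and highest in Nus1. The site in the histone H2A mRNA H2ac20 (NM_175662.2), at 171, had 86.7%, 90.7% and 87.5% in wild type against 87.0% in each of the 3 knockout libraries, from 15 to 54 reads. As a histone gene it shares the limit of paralogs, although its coverage was 0.989 of the transcript's median. Nkd2 (NM_028186.4), an inhibitor of Wnt signalling, stood at 92.7% at 3097, near the last listed cytosine of the transcript. Its ratio was 1.0, from 150 reads. The scaled mean coverage of the whole Nkd2 transcript was only 2.35 in wild type and 1.83 in the knockout, against a median of 5.76 over all tested transcripts. In Nid2 (NM_008695.2), the mRNA of nidogen-2 (a basement membrane component), position 521 had 63.2%, 75% and 86.0% in wild type against 73.4%, 75.6% and 74.0% in the knockout. The wild-type libraries spanned the knockout ones, and the means were 74.7% ± 11.4 and 74.3% ± 1.09 (SD, n = 3 and 3).

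The centromere protein mRNA Cenpv (NM_028448.1) at 680 had 69.4%, 73.1% and 73.9% in wild type against 72.9%, 73.6% and 80.0% in the knockout. Position 2857 of Sec61a1 (NM_016906.4), the pore subunit of the endoplasmic reticulum translocon, had 67.9%, 61.2% and 70.8% in wild type against 63.1%, 67.9% and 63.6% in the knockout. Both sites overlapped between genotypes, and neighbours within 25 nt were at 1.37% and 1.84%. The splicing factor mRNA Srsf6 (NM_026499.4) at 1251 had 56.2%, 67.6% and 77.8% in wild type against 69.6%, 70.4% and 85.7% in the knockout, from 9 to 37 reads. Nus1 (NM_030250.2), a subunit of the enzyme that makes the dolichol chain for protein glycosylation, was the deepest of the 25 highest sites, with 657 reads at position 473. It had 55.9%, 57.8% and 62.2% in wild type against 65.0%, 65.7% and 66.8% in the knockout. The groups did not overlap, and the means were 58.6% ± 3.21 and 65.8% ± 0.927.

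Further sites among the 25 highest lay in Med24, a subunit of the Mediator complex (66.0% at 553), in Nr6a1, an orphan nuclear receptor that represses pluripotency genes (65.4% at 122), and in Rab4b, a GTPase of endosomal recycling (61.8% at 362). Slc12a2, an ion cotransporter, stood at 56.2% at 1901. Rptor, the mTORC1 subunit raptor, had 51.0% at 6420, with 53.3%, 41.4% and 30.0% in wild type against 52.9%, 75% and 64.7% in the knockout, from 8 to 29 reads. Also among them were Tmem101 1420 (66.7%), Mfsd11 2933 (55.1%), Poldip3 2385 (47.1%) and the laminin receptor Bcam 1983 (47.0%). Poldip3 held a second site at 2301 (42.6%). Of the 25, 24 were isolated and the only grouped one was Trim71 265.

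**Figure D2:**
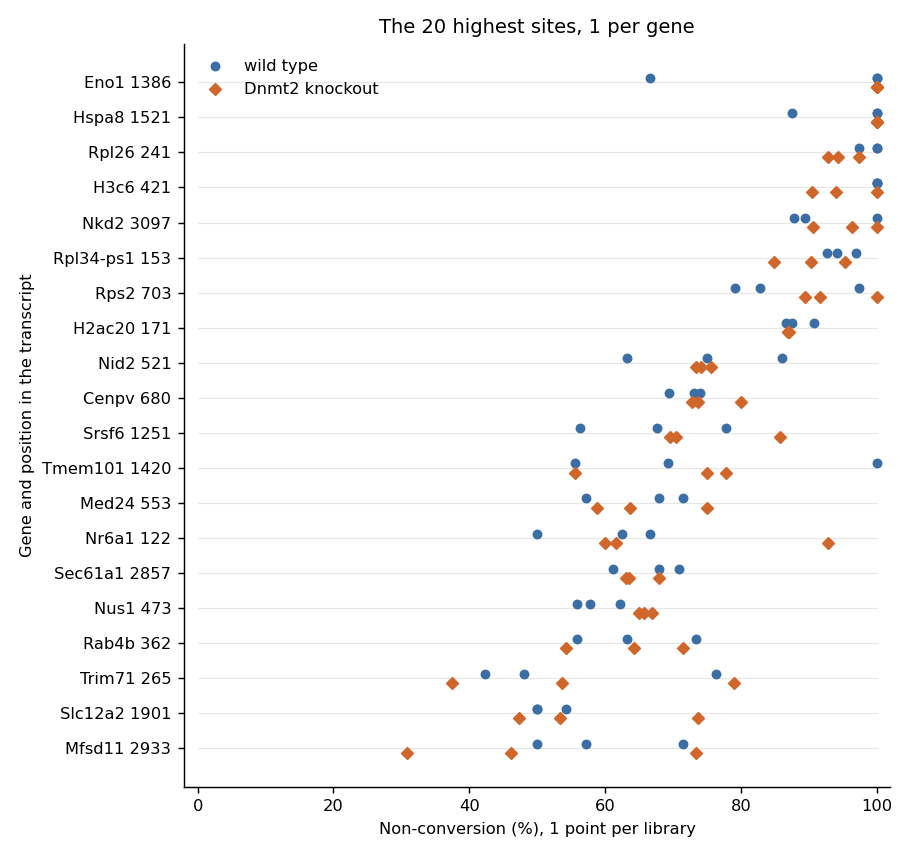
Non-conversion (%) in each library at the 20 highest cytosines, at most 1 per gene, ordered by the summed level; circles are the 3 wild-type and diamonds the 3 knockout libraries. The sites in H2ac20, Cenpv and Sec61a1 have all 6 libraries within a narrow range, while Trim71 265 runs from 37.5% to 78.9%.

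The 10 deepest sites had 768 to 9496 reads, and their spread between libraries was unequal. Rack1 (NM_008143.3), a scaffold protein of the small ribosomal subunit, had 9496 reads at position 186 and a level of 19.0%, against 1.43% for its neighbours. The libraries stood at 17.4%, 16.8% and 18.1% in wild type against 21.2%, 21.5% and 18.2% in the knockout, each from 565 to 2265 reads. Phb2 (NM_007531.2), a prohibitin of the inner mitochondrial membrane, had 26.5%, 21.8% and 24.6% in wild type against 29.1%, 28.7% and 20.7% in the knockout at position 326. Knockout replicate 3 was the lowest of these 6 libraries. Eif4ebp1 (NM_007918.3), which encodes an inhibitor of the cap-binding factor eIF4E, had 37.7%, 36.2% and 29.8% in wild type against 49.3%, 42.0% and 46.4% in the knockout at position 567. All 3 knockout libraries were above all 3 wild-type libraries there, with means of 34.6% ± 4.23 and 45.9% ± 3.67. Rplp2 224, in the mRNA of a ribosomal stalk protein, had 24.8%, 41.7% and 15.9% in wild type against 21.8%, 32.8% and 25% in the knockout. Psmb7 875, in that of a proteasome core subunit, had 14.4%, 15.0% and 27.8% against 17.2%, 16.8% and 22.1%. In both the genotypes overlapped. The coverage at Rplp2 224 was 0.338 times its transcript's median, and as a ribosomal protein gene it shares the limit of processed pseudogenes. The remaining 5 of the 10 deepest sites were in Rad23b and are given with the grouped sites.

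Cytosines 3′ of the isolated sites were sparse. Among the 68 isolated sites at 30% or more, in 67 transcripts, a cytosine was listed at +1 in 3 (4.41%), at +2 in 7 (10.3%), at +3 in 9 (13.2%) and at +4 in 9 (13.2%). The shares over all eligible cytosines were 26.2%, 21.9%, 26.4% and 23.7%. From +5 onward the share was near that of the eligible cytosines (23.5% against 24.6% at +5), and so it was at −1 (23.5% against 26.1%). Farther on the 5′ side it varied, with low shares at −9 (14.7% against 27.0%) and −5 (17.6% against 24.8%). At −10 it was above that of the eligible cytosines (30.9% against 25.1%). None of the 4 positions +1 to +4 held a cytosine in 44 of the 68 sites (64.7%), in 92 of the 174 isolated sites under 30% (52.9%), in 17 of the 140 grouped sites (12.1%) and in 32.7% of all eligible cytosines. Srsf6 1251 was 1 of the 3 with a cytosine at +1. Among all isolated sites at 20% or more the share at +1 was 12.3%. The stretch of 4 positions was singled out after its values were seen and has no test, and the isolated sites are defined by what the cytosines around them do. Without that definition, the share with a cytosine at +1 was 35.9% at levels of 15 to 20%, 36.7% at 20 to 30%, 11.3% at 30 to 50% and 8.00% at 50% or more.

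The grouped sites had the opposite surroundings. A cytosine was listed at +1 of 50.7% and at −1 of 48.6% of them, and 80.0% lay in 2 to 4 consecutive cytosines, against 40.9% of isolated sites and 46.6% of eligible cytosines. The spacing of the Nsun6 motif, cytosines at +2 and +3 and none at +1 and +4, was found at 10 of the 382 sites (2.62%) and at 3.74% of eligible cytosines. Without the other bases the motif itself could not be read. At 30% or more the sites with this spacing were H2ac20 171, Brip1 4228 (33.2%), in the mRNA of a DNA repair helicase, and Rest 922 (31.6%), in that of a repressor of neuronal genes. At Rest 922 the libraries had 32.1%, 41.4% and 29.4% in wild type against 21.4%, 37.5% and 25% in the knockout.

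**Figure D3:**
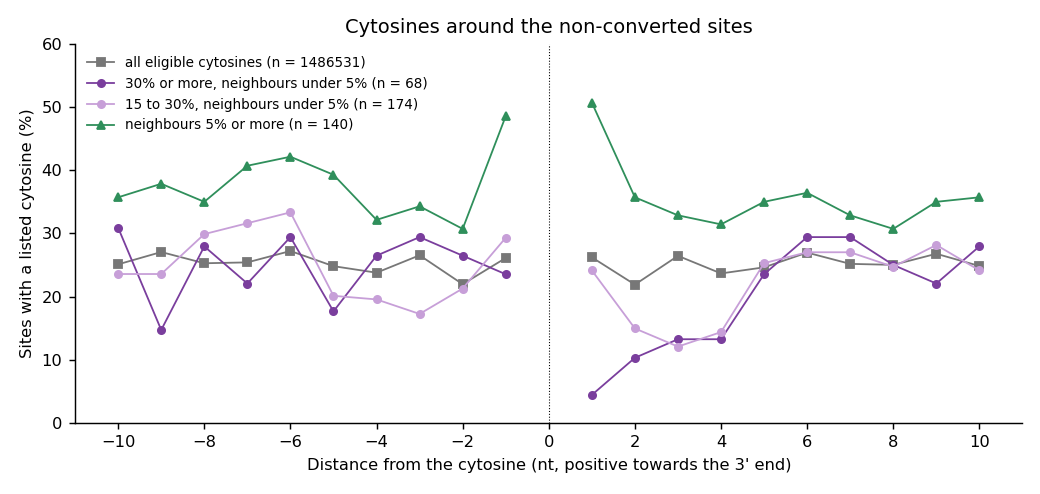
Share of sites (%) with a listed cytosine at each distance (nt) from the site, for all 1486531 eligible cytosines, isolated sites at 30% or more, isolated sites under 30% and grouped sites. The line of the 68 isolated sites at 30% or more is at 4.41% at +1 and under 14% up to +4, and that of the grouped sites peaks next to the site at 48.6% and 50.7%.

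Grouped sites lay mostly near the 5′ end. With the transcript cut into 5 equal parts from its start to its last listed cytosine, 61.4% of the grouped sites lay in the first, against 22.5% of eligible cytosines and 24.4% of isolated sites. Of the 68 isolated sites at 30% or more, 10.3% lay in the first part, 25% in the second, 16.2% in the middle part, 27.9% in the next and 20.6% in the last. Eligible cytosines were at 24.0%, 21.6%, 18.4% and 13.5% in these 4 parts. The median position was 297 for grouped and 1066 for isolated sites, and 1197 for eligible cytosines. Whether a site was in coding sequence or in a UTR was not analysed here.

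**Figure D4:**
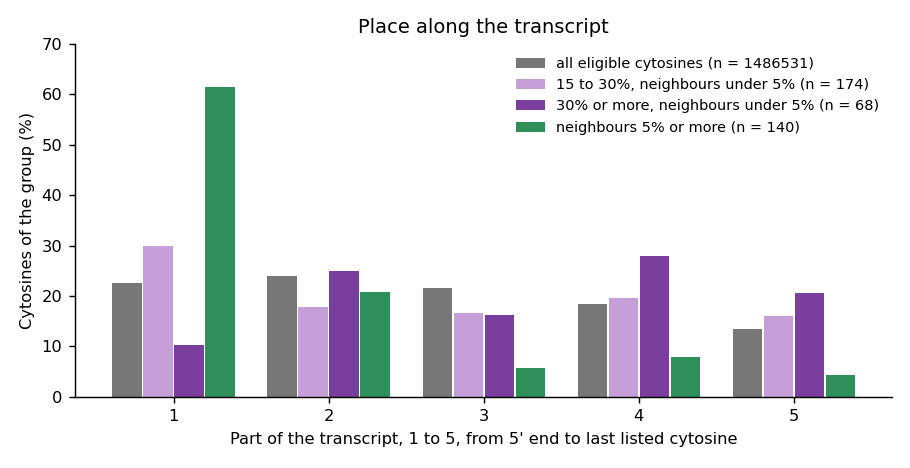
Share (%) of each set of cytosines in each of 5 equal parts of the transcript, from the 5′ end to the last listed cytosine. The grouped sites have 61.4% in the first part, and the isolated sites at 30% or more have 10.3% there.

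The 20 transcripts with 4 or more sites held 130 of them (34%). Among the 173 sites that shared a transcript with another, the nearest was 1 nt away for 105, within 10 nt for 146 and within 100 nt for 158. In 14 of the 20 transcripts the sites spanned 22 nt or less, and in 13 the first site lay in the first of the 5 parts of the transcript. Trim71 (NM_001042503.2), a stem cell ubiquitin ligase that binds RNA and is a target of the let-7 microRNA, had the most, 23, from position 264 to 4834. Its highest site, 265, had 48.0%, 42.3% and 76.3% in wild type against 53.7%, 37.5% and 78.9% in the knockout. Replicate 3 was the highest in both genotypes, and so it was for the 23 sites pooled (22.9%, 19.6% and 38.1% against 27.7%, 29.5% and 41.0%).

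Replicate 3 was the highest in both genotypes in 9 of the 20 transcripts and the lowest in both in 1. The sites were chosen on reads summed over all 6 libraries, so a transcript could enter through its replicate 3 reads. This order was not counted over other transcripts, and the 9 are a description. In both genotypes the gap was over 30 points in Rad23b (NM_009011.4), a DNA repair and proteasome shuttle factor, whose 5 sites lay between positions 297 and 308 and had 1141 to 1272 reads each. Pooled, they stood at 7.13%, 4.86% and 45.6% in wild type against 9.06%, 12.0% and 42.9% in the knockout. With replicates 1 and 2 alone they would thus be under 15% in both genotypes. The 7 sites of Polr2f (NM_027231.1), a subunit shared by the nuclear RNA polymerases, were at 18.2%, 17.7% and 61.4% in wild type against 21.6%, 9.30% and 21.1% in the knockout, so there only 1 library stood apart. The 5 sites of Snrnp40, a component of the spliceosome, gave the same picture, with 68.3% in wild type replicate 3 and 11.7% to 18.1% in the others.

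Other transcripts did not follow replicate 3. In Igfbp3 (NM_008343.2), which encodes a carrier of insulin-like growth factors, the 9 sites between 297 and 309 were at 25.3%, 0.866% and 7.62% in wild type against 45.4%, 47.9% and 11.5% in the knockout. In Tnks2 (NM_001163635.1), a tankyrase, the 12 sites were at 27.1%, 14.7% and 15.5% in wild type against 37.3%, 30.5% and 24.7% in the knockout. Both were high in replicate 1 of each genotype and overlapped between genotypes. The 4 sites of Mycn, a MYC family transcription factor, were at 28.4%, 5.70% and 25.6% in wild type against 35.0%, 40.2% and 28.1% in the knockout. Wild type replicate 2, the deepest library, was the lowest wild-type library in 14 of the 20 transcripts. The part that depth played in this was not tested. In 4 transcripts, Sap30l, Ppp1r14b, Brd1 and Nectin2, every knockout library was above every wild-type library, and in 0 was it the reverse. For Ppp1r14b, an inhibitor of protein phosphatase 1, the values were 14.6%, 9.19% and 21.1% against 26.6%, 23.9% and 28.2%. Some libraries were shallow: Nectin2 had 20 reads over its sites in wild type replicate 1. In wild type replicate 3, Brd1 had 22 and Sap30l 39. The count was not made over other transcripts. Over the 8193 single cytosines tested for genotype, the knockout was wholly above at 360 (4.39%) and wholly below at 286 (3.49%). The sites of 1 transcript lie on shared reads and are not independent.

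**Figure D5:**
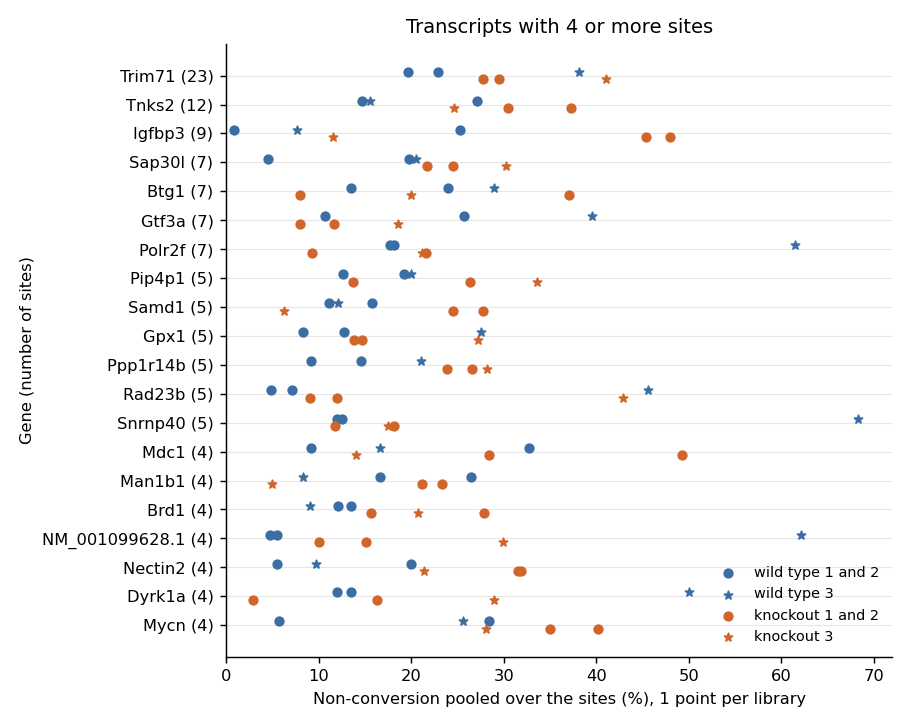
Non-conversion (%) pooled over the sites of each of the 20 transcripts with 4 or more sites, 1 symbol per library; stars are the replicate 3 libraries, blue wild type and orange knockout, and the number of sites is in brackets. Rad23b, Trim71 and Gpx1 have both stars to the right of the circles of their genotype, and Polr2f and Snrnp40 only the wild-type star far from the rest.

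The host genes covered many functions. Of 250 host genes among 7464 with an eligible cytosine, 5 encoded cytosolic ribosomal proteins (2.00%, Rpl18, Rpl26, Rpl36a, Rplp2 and Rps2) against 91 of the eligible genes (1.22%). The coverage at these 5 sites was 0.0553 (Rps2) to 0.338 (Rplp2) times the transcript's median. It was 0.773 (Rps2) to 1.49 (Rplp2) times the mean of the neighbours within 25 nt. As ribosomal protein genes all 5 share the limit of processed pseudogenes, and the part of such copies in the coverage was not tested. Splicing and hnRNP genes with the symbol prefixes Sf3, Srsf, Snrp or Hnrnp were also 5 (2.00%, Hnrnph1, Hnrnph2, Hnrnpll, Hnrnpu and Srsf6) against 44 (0.589%). The hosts Snrnp40, Snrnp48 and Prpf8, also splicing genes, lack these prefixes and are in neither count. Hnrnph1 1307 stood at 27.0%, 29.7% and 28.3% in wild type against 39.0%, 29.3% and 32.0% in the knockout. Ubiquitin enzymes were 6 (2.40%) against 132 (1.77%), proteasome genes 3 (1.20%) against 46 (0.616%) and solute carriers 4 (1.60%) against 104 (1.39%). Genes with a Rab symbol were 3 (1.20%) against 35 (0.469%), and 1 of them, Rab3gap2, is not itself a Rab GTPase. Zinc finger genes were 2 (0.800%) against 166 (2.22%), and aminoacyl-tRNA synthetases 0 of 32. Replication-dependent histones were 2 (0.800%) against 47 (0.630%), which leaves out the histone host H1f10. Of 21 pluripotency genes Lin28a and Trim71 were hosts. With 0 to 6 host genes in each, these shares are a description.

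Host transcripts were abundant. Their median scaled coverage per cytosine was 20.8 against 5.76 over all tested transcripts, and the choice of the sites asked for coverage. None of the 250 differed in coverage between genotypes by limma at an adjusted p under 0.05, where the background was 0 of 10949 transcripts (percent called 0.0). At an unadjusted p under 0.05 there were 24 of the 250 against 778 of all (7.11%). In bulk RNA, fewer cells of a type and less RNA per cell cannot be told apart. Of the genes that place, remove or read RNA cytosine methylation, 14 transcripts were tested and 0 called, with 1 at an unadjusted p under 0.05, Trdmt1 (log2 difference −1.56, SE 0.363, adjusted p = 0.370 by limma). Nsun2, the main mRNA methyltransferase, had 60.8, 49.3 and 54.3 in wild type against 57.2, 62.4 and 53.2 in the knockout, and Nop2, an rRNA methyltransferase, had means of 37.3 and 38.8. Alyref, itself a host with 15.1% at position 187, had a mean coverage of 114 and 104. Nsun6 was below the coverage filter.

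The comparison of genotypes addressed whether mRNA non-conversion differed without Dnmt2. Of the 382 sites, 185 had the 10 reads in every library that the test needed, and 0 passed edgeR's quasi-likelihood test at an adjusted p under 0.05, with a lowest adjusted p of 0.999. Over all 8193 cytosines tested 0 passed too (percent called 0.0). Missing the threshold does not show that the genotypes were alike. At an unadjusted p under 0.05 there were 10 of the 185, 8 of them higher in the knockout, against 202 of the 8193 (2.47%), and DESeq2 called 0 with 3 of the 185 at an unadjusted p under 0.05.

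The smallest unadjusted p values among the sites belonged to Ppp1r14b 322, Got2 1478, Igfbp3 300, H3c6 421, Tnks2 249 and Rad23b 307. Got2 (NM_010325.2), the mitochondrial aspartate aminotransferase, had 10.0%, 29.3% and 33.3% in wild type against 57.1%, 65.2% and 50% in the knockout, from 14 to 41 reads, with an adjusted p of 0.999 by edgeR. The coverage at this site was only 0.342 times the transcript's median. Ppp1r14b 322 had 11.1%, 7.09% and 20.6% in wild type against 27.0%, 27.7% and 29.6% in the knockout. In both genes the 2 genotypes did not overlap, and in H3c6 421 the knockout was lower, with 90.5%, 100% and 94.0% against 100% in each wild-type library. Non-overlap with the knockout above was found at 18 of the 185 sites (9.73%) against 360 of the 8193 cytosines tested (4.39%), and with the knockout below at 2 (1.08%) against 286 (3.49%).

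The knockout mean was above the wild-type mean at 255 of the 382 sites (66.8%), with a median difference of 3.10 percentage points, and at 132 of the 185 tested (71.4%), with a median of 3.11 points. Over all 8193 tested it was above at 47.0%, with a median of −0.318 points. Those were chosen on the mean over libraries and the sites on summed reads, so these shares, and those of non-overlap, compare unlike choices. Among eligible cytosines classed by summed reads, the knockout mean was above at 43.4% of those under 2% and at 56.4% of those at 2 to 5%. It was above at 56.3% of those at 5 to 10% and at 59.1% of those at 10 to 15%. Isolated and grouped sites had medians of 2.88 and 4.29 points. The library medians of all 382 were 20.8%, 18.6% and 21.2% in wild type against 24.3%, 25.6% and 22.8% in the knockout. These 3 and 3 medians did not overlap, but the sites were chosen on reads of both genotypes, 45.7% of them wild type, and the background was highest in knockout replicates 1 and 2. Their part in the difference was not tested. Without wild type replicate 3 the median difference of the sites was 4.86 points.

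A choice made in 1 genotype and read in the other avoids reading the values that chose a site. Chosen by the same rule in wild type alone, with a coverage of 30 or more in each genotype, 353 sites could be read in the knockout. Their median was 19.3% in wild type against 19.1% in the knockout, where 221 (62.6%) were again at 15% or more, against 0.0384% of all eligible cytosines. Chosen in the knockout alone, 527 could be read in wild type, with medians of 19.6% and 12.8%, and 221 of them (41.9%) reached 15% there, against 0.0257%. Of the sites chosen in wild type, the isolated ones reached 15% in the knockout at 153 of 264 (58.0%) and the grouped ones at 68 of 89 (76.4%). Of those chosen in the knockout, the isolated ones reached it in wild type at 153 of 361 (42.4%) and the grouped ones at 68 of 166 (41.0%), so the order was not kept. The sites at 15% or more in both genotypes numbered 221 by either choice. The shares of the 2 directions thus differ only in how many sites were chosen and readable, and are not separate readings. The split into isolated and grouped used the neighbours' reads in all 6 libraries, so those of both genotypes.

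Fisher's exact test on counts summed over libraries, which ignores the spread between them, called 11 of the 185 sites and 27 of the 8193 cytosines (0.33%), and all 11 were higher in the knockout. They were Eif4ebp1 567, Rack1 186, Got2 1478, 3 sites of Ppp1r14b (321, 322 and 323) and the 5 of Rad23b. The Rad23b sites, with 3.55%, 3.28% and 45.5% in wild type against 11.7%, 11.1% and 45.7% in the knockout at position 307, overlapped between genotypes. Without wild type replicate 3, Rad23b 307 was the only call of edgeR among 20578 cytosines (0.00486%), with an adjusted p of 0.00215. That fit kept knockout replicate 3, where the site stood at 45.7%. Without both replicate 3 libraries edgeR called 0 of 33482 cytosines, and the lowest adjusted p among the sites was 0.949.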

How the data were processed

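RNA of embryonic stem cells was bisulfite treated and sequenced by the authors, who used BSMAP and build mm9 per the submitters' processing notes. Its version and the filters on reads were not stated in these sources. The deposited files list, per the file headers, coverage (a count of reads at a cytosine, not normalized) and a fraction of unconverted reads. Their product, whole within a tolerance of 0.01 in every entry, gave non-converted counts. Positions are those of the RefSeq transcript. Symbols came from RefSeq's GRCm38.p6 table by accession (248 of 250 host transcripts, 186 by exact version), and none of its coordinates was used. The small-RNA and undepleted libraries were not used here.

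The sites and gene lists were chosen with earlier results of these data known. Named sites were the 25 highest (1 per gene), those of the 8 transcripts with most, the 6 smallest p, the 10 deepest, the 5 nearest the threshold on either side, those with the CUCCA spacing at 30% or more and those in the listed families. Of these, 2 are not reported here. Genotypes were compared with edgeR 4.0.16 in R 4.3.3 (a term per library, conversion state and its interaction with genotype) at cytosines with at least 10 reads in each library and a mean of at least 5%, with Benjamini-Hochberg adjustment over all 8193. DESeq2 1.42.0 and Fisher's exact test were alternatives. Transcript coverage, the mean over listed cytosines scaled by TMM, was tested with limma 3.58.1 on log2(value + 0.5) at a mean of 1 or more, which understates changes at low levels. Both tests were checked on simulated data, where the edgeR test recovered most of the large differences and hardly any of the smaller ones, and the coverage test made a few false calls. Molecular identifiers are not mentioned in the labels, so reads may not be independent molecules.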

Additional observations from a re-analysis of the deposited data

How the results depend on the processing

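The number of sites depended on the level asked for: 1028 at 10% or more, 215 at 20%, 87 at 30%, 97 when 15% was required in each of the 6 libraries and 707 when the knockout alone chose them, against 382. Leaving out 1 library at a time gave 374 to 434. The share of isolated sites, 63.4%, was 56.5% with neighbours within 10 nt, 77.0% within 50 nt, 53.9% with a limit of 3%, 78.2% among sites at 30% or more and 73.8% without both replicate 3 libraries, an alternative chosen after seeing the data. The share of isolated sites at 30% or more with a cytosine at +1 was 12.3% when 20% was asked for and 4.26% to 4.94% under the other alternatives, all added after seeing the data. Genotype calls were 27 over all cytosines and 11 among the sites by Fisher's exact test, and 0 to 1 in both when 1 library was left out. Host transcripts gave 0 coverage calls under each alternative run. The median genotype difference was 2.98 to 4.86 points with 1 library left out and 4.74 without both replicate 3 libraries.

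The replicate numbers were not taken to pair the libraries, since the labels do not say whether a number marks a shared batch. Same-numbered libraries deviated together with correlations of 0.0793, 0.108 and 0.242. Wild type replicate 1 correlated best with knockout replicate 2 (0.0851), but wild type replicates 2 and 3 correlated best with their own number. Between a replicate 3 library and another number the correlations were −0.172 to −0.0981. Whether the numbers mark a batch was not tested. With the number as a replicate block, 0 cytosines and 0 of the sites were called by edgeR (176 and 22 at an unadjusted p under 0.05), 0 transcripts by limma, and the median difference was 3.10 points.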
